A study of Homo sapiens with 6 samples.

Results

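The genes described here encode the nuclear subunits of respiratory complexes I to IV. They were taken by name, as every symbol of the count tables beginning with NDUFA, NDUFB, NDUFC, NDUFS, NDUFV, UQCR, COX4, COX5, COX6, COX7 or COX8, together with CYC1, SDHA, SDHB, SDHC and SDHD, leaving out the NDUFAF assembly factors and symbols that end as pseudogenes. Of 37493 identifiers, 74 had such a symbol, and 58 of these reached 5 CPM (a gene's count relative to the size of its library) in at least 1 library of a line and are called the members. All 58 passed this threshold in both lines. The list holds 56 textbook subunits plus COX7A2L, a COX7A relative that joins complexes III and IV into supercomplexes, and UQCRHL, a near-identical copy of UQCRH.

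The study concerns the nuclear receptor PPARG, which activates lipid genes, in esophageal adenocarcinoma, and its title links PPARG to fatty acid synthesis. Eso26 and OE33 are established cell lines from such tumours. The groups used here are Eso26 control, Eso26 siPPARG, OE33 control and OE33 siPPARG. Cells of both lines received siRNA with Lipofectamine RNAiMAX, which was non-silencing in the controls and directed at PPARG (siPPARG) in the others, so the controls were transfected too. Eso26 grew in RPMI-1640 and OE33 in DMEM, both with fetal bovine serum, so line and medium cannot be told apart. The design text mentions triplicates, but each condition has 1 column of counts, treated here as 1 library. No value within a line therefore has a replicate check, and no p-value is given there.

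The respiratory chain sits in the inner mitochondrial membrane. Complex I takes electrons from NADH and complex II from succinate, complex III passes them to cytochrome c, and complex IV hands them to oxygen, while complexes I, III and IV pump protons that drive ATP synthase. Most subunits are encoded in the nucleus and imported, and a small core of complexes I, III and IV is encoded by mitochondrial DNA. Promoters of the nuclear genes are known to be bound by NRF1, by the ETS factor GABP and by YY1, and the coactivators PPARGC1A, PPARGC1B and PPRC1 act with such factors.

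Stretches of 5 member promoters are printed to show these motif letters, each in a gene whose values are given later. Sequences are from RefSeq on GRCh38.p14, read 5′ to 3′ on the gene's strand, and capitals mark the match, which may lie on either strand. UQCRC1 (chr3:48609664-48609713, minus strand) carries the NRF1 letters, COX5B (chr2:97646005-97646051, plus strand) and SDHB (chr1:17054134-17054180, minus strand) the ETS letters, and NDUFS8 (chr11:68030484-68030530, plus strand) and NDUFS1 (chr2:206159404-206159450, minus strand) the YY1 letters.
UQCRC1: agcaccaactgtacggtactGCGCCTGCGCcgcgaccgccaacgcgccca
COX5B: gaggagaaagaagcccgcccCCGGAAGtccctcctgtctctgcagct
SDHB: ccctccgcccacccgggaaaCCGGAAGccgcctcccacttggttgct
NDUFS8: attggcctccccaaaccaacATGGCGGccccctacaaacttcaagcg
NDUFS1: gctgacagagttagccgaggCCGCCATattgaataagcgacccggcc

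The promoter table covers 250 bases before to 50 bases after each start and held 47 of the 58 members. The YY1 letters ATGGCGG, searched on both strands, occurred in 16 of the 47 (34.0%), against 14.4% of 7741 genes kept in both lines and 5.55% of all 35116 entries. For the NRF1 letters, GCGC and TGCGC with any base between them, the numbers were 11 members (23.4%), 15.0% of kept genes and 5.78% of entries. For the ETS letters CCGGAAG they were 14 members (29.8%), 25.2% of kept genes and 10.3% of entries. A perfect direct repeat of AGGTCA with any base between the copies, of the kind PPARG binds with RXR, was found in 0 of the 47 members. It occurred in 5 of the 7741 kept genes (0.065%) and in 8 entries of the whole table. Letters this rare would hardly be met in 47 genes, so nothing about PPARG can be read from the 0. The 16 members with the YY1 letters had a median log2 fold of siPPARG over control of -0.11 in OE33 and 0.11 in Eso26, and the 31 without had -0.04 and 0.15. The 11 with the NRF1 letters had -0.03 in OE33 and 0.15 in Eso26, against -0.06 and 0.15 in the 36 without. The 14 with the ETS letters had -0.05 and 0.13, against -0.05 and 0.15 in the 33 without. These groups share members: outside the stretches printed above, UQCRC1 and SDHB also had the YY1 letters and NDUFS1 the ETS letters. A match is a description of letters and not of binding.

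Library totals ran from 16866996 to 23019840 counts, so that 3 counts, the limit a count of 0 allows, correspond to 0.130 to 0.178 CPM. PPARG checks the labels: it stood at 127 CPM in the OE33 control and 17.3 CPM in OE33 siPPARG, but at 11.4 CPM in the Eso26 control and 9.64 CPM in the library labelled siPPARG. The Eso26 ratio was 0.843, with a 95% counting interval of 0.698 to 1.02, so a reduction of PPARG was not detectable there at this depth. All Eso26 directions refer to the library so labelled. Of 8 columnar epithelial markers, 8 were kept in OE33 and 7 in Eso26, where KRT7 had 30 and 28 counts. Endothelial (3 genes) and muscle (5 genes) markers were all under the threshold, as were 6 of 6 mesenchymal markers in OE33 and 5 of 6 in Eso26, all but COL1A1, and 4 of 5 immune markers in OE33, all but CD14, and 5 of 5 in Eso26. In all that follows, intervals of a ratio are exact 95% intervals. The ratio is of siPPARG to control or, where the controls are compared, of 1 control to the other. These intervals carry counting error alone, without the variation that separate cultures would add.

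After siPPARG, the respiratory subunits of OE33 stood slightly lower than in the control, and no member differed by 1.5-fold. The group medians of log2 fold were lowest in complexes II (-0.16) and III (-0.14). Of the 58, 42 had a log2 fold below 0 (72.4%, against 51.3% of the 10527 genes kept in OE33) and 16 above 0 (against 48.7%). The counting interval lay below 1 for 17 members (against 25.8% of all kept genes) and above 1 for 4 (against 24.8%). The median log2 fold was -0.05, against -0.01 over all kept genes, and the members ranged from -0.31 to 0.28. Past 1.2-fold there were 2 members, SDHA lower and NDUFA9 higher (against 27.8% of kept genes in either direction), and past 1.5-fold there were 0 (against 5.64%). The displacement was thus small and its spread narrow. Among the 9 members averaging 100 CPM or more, all 9 were lower, 7 with an interval below 1, and their median log2 fold was -0.22, against -0.01 over the 2589 kept genes at that level. Of those 2589 genes, 1357 were lower (52.4%) and 958 had an interval below 1. A bulk library cannot tell less RNA of a gene per cell from fewer cells that carry it.

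In Eso26 the same genes stood slightly higher in the library labelled siPPARG, across all 4 complexes and again without a member past 1.5-fold. A log2 fold above 0 was found for 54 of 58 (against 48.6% of the 10443 genes kept in Eso26) and below 0 for 4 (against 51.4%). The interval lay above 1 for 34 members (against 23.6%) and below 1 for 2 (against 29.6%). The 34 became 28 with DESeq2 size factors and 41 with no scaling factor. The median log2 fold was 0.13, against -0.01 over all kept genes, with a range of -0.18 to 0.45. Past 1.2-fold there were 7 members, all higher (against 24.7% in either direction), and 0 were past 1.5-fold in either direction (against 2.40%). Among the 28 members averaging 100 CPM or more, 25 were higher with a median of 0.08, whereas 1557 of the 2458 kept genes at that level were lower, with a median of -0.06.

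**Figure D1:**
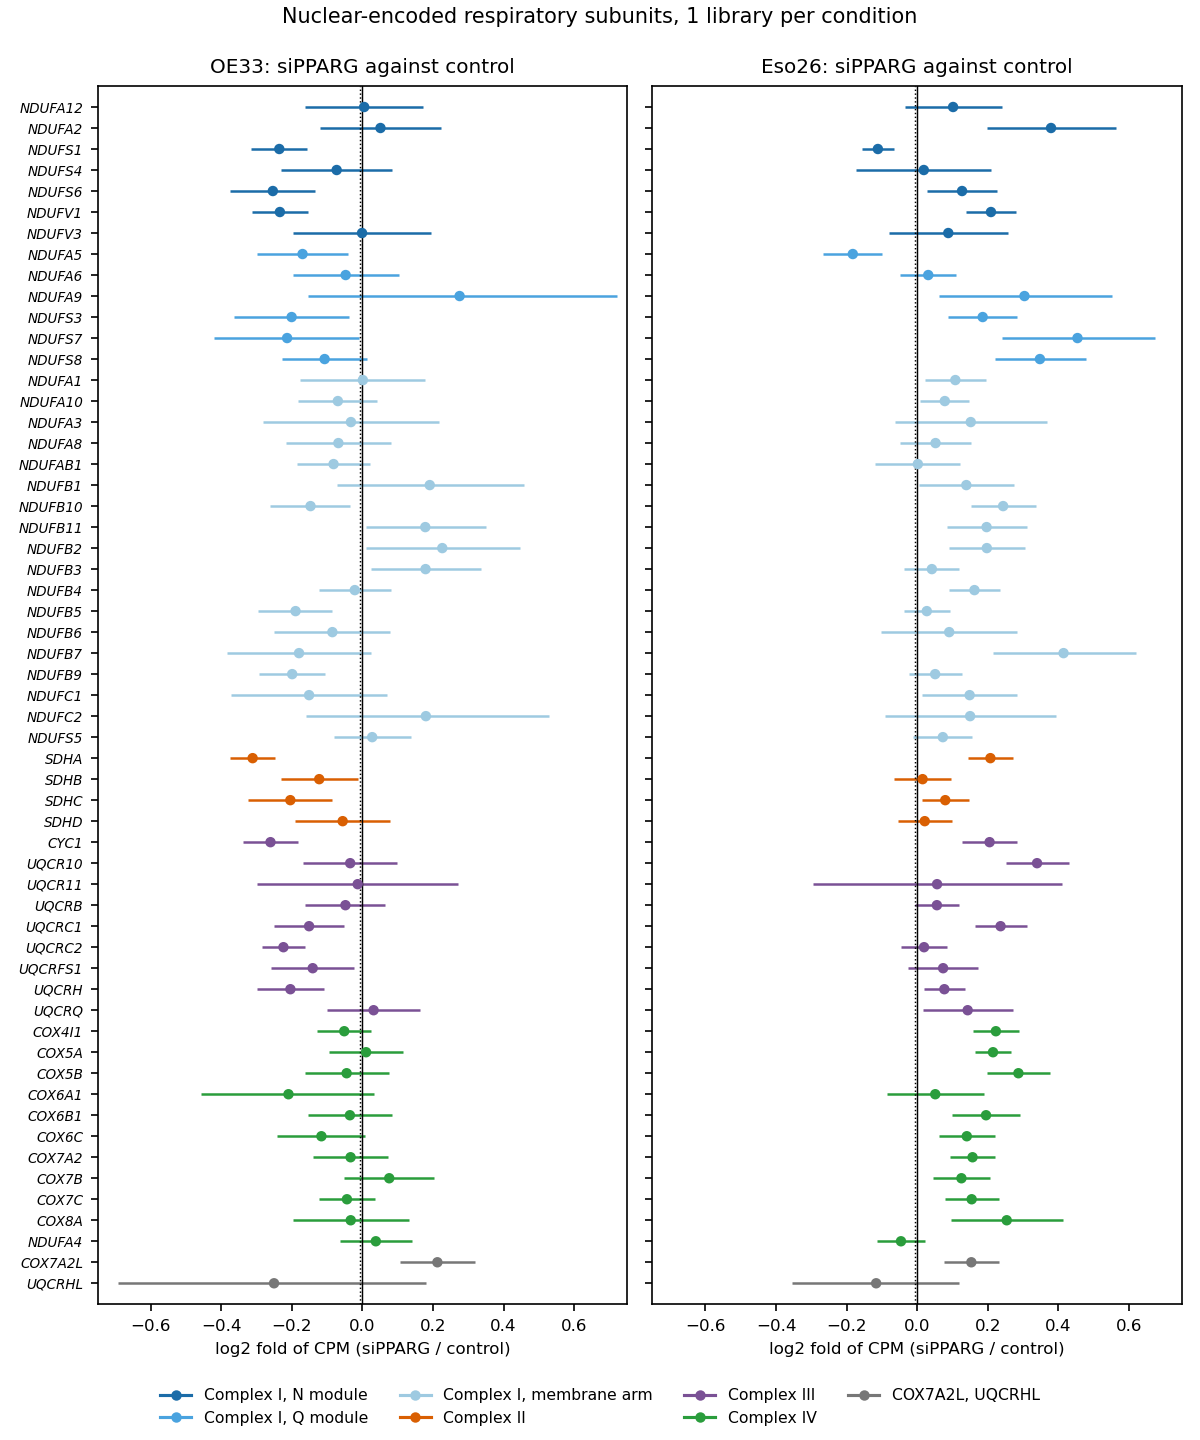
Log2 fold of CPM in siPPARG over control (x axis) for 57 of the 58 members (y axis), OE33 left and Eso26 right, coloured by complex or module. Points are values from 1 library per condition, bars are 95% counting intervals and the dotted line is the median of all kept genes. In OE33 42 of the 57 points lie below 0, and in Eso26 53 lie above it.

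Complex II, succinate dehydrogenase, is the complex without a mitochondrially encoded subunit, and all 4 of its genes were lower in OE33, 3 with an interval below 1 (2 of 4 with DESeq2 size factors). For this and the following groups, the shares over all kept genes were 51.3% lower in OE33 and 48.6% higher in Eso26. Intervals lay below 1 for 25.8% of kept genes in OE33 and above 1 for 23.6% in Eso26. SDHA, the flavoprotein that oxidises succinate, had 4273 counts in the OE33 control (252 CPM) and 3684 in OE33 siPPARG (204 CPM), a ratio of 0.806 (interval 0.771 to 0.843). In Eso26 it had 3820 counts in the control (169 CPM) and 4058 in siPPARG (195 CPM), a ratio of 1.15 (interval 1.10 to 1.21). SDHA was thus lower in OE33 siPPARG and higher in Eso26 siPPARG, beyond counting error in both. Reads of SDHA can be shared with near-identical pseudogene copies: SDHAP1 had 165 and 181 counts in the OE33 control and siPPARG, and 275 and 293 in the Eso26 control and siPPARG. SDHAP3 had 19 and 23 counts in OE33 and 39 and 64 in Eso26. How shared reads were assigned is not known here, so the SDHA values are uncertain.

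SDHC, a membrane anchor of complex II, showed the same pair of directions. It stood at 70.8 CPM in the OE33 control and 61.5 in siPPARG (ratio 0.868, interval 0.799 to 0.942), and at 160.0 and 169 CPM in Eso26 (ratio 1.06, interval 1.01 to 1.11). SDHB, the iron-sulfur subunit whose promoter stretch is printed above, went from 81.4 to 74.7 CPM in OE33 (ratio 0.919, interval 0.852 to 0.991). In Eso26 SDHB stood at 114 and 115 CPM, which cannot be told apart by their counts (interval 0.956 to 1.07). The other anchor, SDHD, was at 53.2 and 51.2 CPM in OE33 and at 127 and 129 CPM in Eso26, with both intervals including 1. As a share of all counts on the members, complex II took 11.2% in the OE33 control (Wilson 95% interval 11.0 to 11.5%) and 10.3% in OE33 siPPARG (10.1 to 10.6%). SDHA held 4273 of the 7749 complex II counts in the OE33 control and 3684 of the 7076 in OE33 siPPARG. The lower share therefore rests largely on the uncertain SDHA values. In Eso26 the share was 10.0% in the control and 9.94% in siPPARG, with overlapping intervals.

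Complex III oxidises ubiquinol and reduces cytochrome c. In OE33 8 of its 9 nuclear subunits were lower (7 of 9 with DESeq2 size factors), 5 with an interval below 1, and the median log2 fold was -0.14. In Eso26 all 9 were higher (8 of 9 with those factors), 5 with an interval above 1 (3 with those factors), with a median of 0.08. CYC1, the haem-carrying cytochrome c1, had 2904 counts in the OE33 control and 2593 in siPPARG (172 and 143 CPM, ratio 0.835, interval 0.791 to 0.880). In Eso26 CYC1 had 2622 and 2781 counts (116 and 133 CPM, ratio 1.15, interval 1.09 to 1.22). Its level was thus lower with siPPARG in OE33 and higher in Eso26.

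UQCRC1 and UQCRC2, the core proteins of complex III, are homologues of a mitochondrial processing peptidase. UQCRC1, whose NRF1 letters are shown above, stood at 98.0 and 88.2 CPM in the OE33 control and siPPARG (ratio 0.900, interval 0.840 to 0.965) and at 126 and 148 CPM in Eso26 (ratio 1.18, interval 1.12 to 1.24). UQCRC2 was lower in OE33, from 276 to 236 CPM (ratio 0.856, interval 0.821 to 0.893), and nearly equal in Eso26, at 174 and 176 CPM (interval 0.969 to 1.06). The small subunit UQCR10 was at 53.4 and 52.1 CPM in OE33, with an interval of 0.890 to 1.07. In Eso26 it was at 83.2 and 105 CPM (ratio 1.27, interval 1.19 to 1.35), the highest ratio of complex III. The hinge protein UQCRH was at 111 and 96.8 CPM in OE33 (ratio 0.868, interval 0.813 to 0.927) and at 212 and 223 CPM in Eso26 (ratio 1.05, interval 1.01 to 1.10). Its copy UQCRHL had 96 and 86 counts in OE33 and 323 and 274 in Eso26, with both intervals including 1, and the sources used here do not say how reads were divided between the copies.

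Complex I has an N module that binds NADH, a Q module that reduces ubiquinone and a membrane arm that pumps protons. Of the 7 N module members, 5 were lower in OE33 (4 with DESeq2 size factors), 3 of them by their intervals. In Eso26 6 were higher (5 with those factors), 3 of them by their intervals. NDUFV1, which carries the flavin that accepts electrons from NADH, went from 161 to 137 CPM in OE33 (ratio 0.850, interval 0.805 to 0.898) and from 137 to 158 CPM in Eso26 (ratio 1.16, interval 1.10 to 1.21). NDUFS6, a zinc-binding subunit, went from 69.9 to 58.6 CPM in OE33 (ratio 0.838, interval 0.771 to 0.912) and from 73.3 to 80.1 CPM in Eso26 (ratio 1.09, interval 1.02 to 1.17). NDUFV1 and NDUFS6 therefore shared the directions of SDHA and CYC1.

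NDUFS1, the large iron-sulfur subunit of the N module, did not follow that pattern and was lower with siPPARG in both lines. It had 2743 and 2492 counts in OE33 (162 and 138 CPM, ratio 0.849, interval 0.804 to 0.897) and 8796 and 7491 counts in Eso26 (388 and 359 CPM, ratio 0.926, interval 0.897 to 0.955). NDUFA2, a small accessory subunit, was at 31.6 and 32.8 CPM in OE33 (interval 0.920 to 1.17) and at 19.9 and 25.8 CPM in Eso26 (ratio 1.30, interval 1.15 to 1.48).

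In the Q module 5 of 7 members were lower in OE33 and 6 of 7 higher in Eso26, with intervals below 1 for 3 (2 with DESeq2 size factors) and above 1 for 5. NDUFS7, which holds the last iron-sulfur cluster before ubiquinone, had the highest Eso26 ratio of all 58 members. It had 320 counts in the Eso26 control and 404 in siPPARG (14.1 and 19.4 CPM, ratio 1.37, interval 1.18 to 1.59), against 410 and 378 in OE33 (24.2 and 20.9 CPM, ratio 0.862, interval 0.747 to 0.994). NDUFS8, another iron-sulfur subunit, stood at 67.9 and 63.0 CPM in OE33 (interval 0.855 to 1.01) and at 40.2 and 51.2 CPM in Eso26 (ratio 1.27, interval 1.16 to 1.39). NDUFS3, a core subunit next to them, was at 38.2 and 33.3 CPM in OE33 (ratio 0.870, interval 0.777 to 0.973) and at 74.2 and 84.4 CPM in Eso26 (ratio 1.14, interval 1.06 to 1.22).

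NDUFA9, an accessory subunit at the joint of the arms, had a higher value with siPPARG in both lines at a low level. Its counts were 80 and 104 in OE33 (ratio 1.22, interval 0.899 to 1.65), where the change lies within counting error, and 262 and 298 in Eso26 (ratio 1.24, interval 1.04 to 1.47). NDUFA5, named after its values were seen as one of the members below 1 in both lines, was at 60.0 and 53.4 CPM in OE33 (ratio 0.889, interval 0.813 to 0.972) and at 114 and 100.2 CPM in Eso26 (ratio 0.881, interval 0.831 to 0.934).

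The membrane arm was the most mixed group in OE33. Of its 18 members 11 were lower (against 51.3% of all kept genes) and 7 higher there. Their intervals lay below 1 for 3 (against 25.8%) and above 1 for 3 (against 24.8%). In Eso26 18 of 18 were higher (17 with DESeq2 size factors). By their intervals 9 were higher, 6 with DESeq2 size factors and 13 with no scaling factor. NDUFB9 was at 114 and 99.5 CPM in OE33 (ratio 0.871, interval 0.816 to 0.929) and at 131 and 135 CPM in Eso26 (interval 0.983 to 1.09). NDUFB10 was at 76.2 and 68.8 CPM in OE33 (ratio 0.903, interval 0.835 to 0.977) and at 81.0 and 96.0 CPM in Eso26 (ratio 1.18, interval 1.11 to 1.26). Both are accessory subunits of the distal part of the arm and were lower in OE33 siPPARG than in its control.

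NDUFB2, a small accessory subunit, had a higher value with siPPARG in both lines, at 18.7 and 21.9 CPM in OE33 (ratio 1.17, interval 1.01 to 1.36) and at 61.0 and 69.9 CPM in Eso26 (ratio 1.15, interval 1.06 to 1.24). NDUFB1 was at 12.8 and 14.6 CPM in OE33 (interval 0.951 to 1.37) and at 39.6 and 43.6 CPM in Eso26 (ratio 1.10). NDUFB7 had the highest ratio of the arm in Eso26, at 16.1 and 21.4 CPM (ratio 1.33, interval 1.16 to 1.54), and was at 24.2 and 21.4 CPM in OE33 (interval 0.766 to 1.02).

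Complex IV, cytochrome c oxidase, holds 11 members. In OE33 8 of them were lower, but 0 had an interval off 1 on either side, whereas in Eso26 10 of 11 were higher, 9 with an interval above 1. COX4I1, the largest nuclear subunit, was at 162 and 156 CPM in OE33 (interval 0.915 to 1.02) and at 163 and 189.8 CPM in Eso26 (ratio 1.17, interval 1.12 to 1.22). COX5B, whose ETS letters are shown above, was at 67.1 and 65.1 CPM in OE33 (interval 0.893 to 1.05) and at 82.9 and 101 CPM in Eso26 (ratio 1.22, interval 1.15 to 1.30). COX8A, one of the smallest subunits, was at 35.2 and 34.4 CPM in OE33 (interval 0.872 to 1.10) and at 27.2 and 32.4 CPM in Eso26 (ratio 1.19, interval 1.07 to 1.33). The OE33 libraries of these genes could not be told apart by their counts, while the Eso26 libraries could. COX4I1, COX5B and COX8A were named as the top 3 of complex IV by their Eso26 folds, so that contrast follows in part from the choice.

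COX6A1, the ubiquitous form of subunit 6A, had 290 and 268 counts in OE33 (ratio 0.864, interval 0.729 to 1.02) and 899 and 857 in Eso26 (ratio 1.04, interval 0.942 to 1.14). COX6C was at 62.5 and 57.6 CPM in OE33 and COX7B at 56.5 and 59.5 CPM, both with intervals that include 1. In Eso26 COX6C was at 112 and 124 CPM (interval 1.04 to 1.16) and COX7B at 112 and 122 CPM (interval 1.03 to 1.15). NDUFA4, which was first assigned to complex I and is now counted with complex IV, was the member with the reverse pair of directions, at 88.4 and 90.8 CPM in OE33 and 170.2 and 165 CPM in Eso26, both within counting error.

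Several complex IV subunits come as isoforms of different tissues, and here the muscle, lung and testis forms had few or no counts. COX4I2, COX6A2, COX7B2 and COX8C had 0 counts in all 4 libraries, and COX7A1 had 1 count in the OE33 control and 0 elsewhere. COX6B2, the testis form, had 2 counts in the OE33 control, 11 in OE33 siPPARG and 0 in Eso26, a ratio of 5.14 in OE33 with an interval of 1.12 to 47.7, against 1145 and 1195 counts of its ubiquitous relative COX6B1. NDUFA4L2, a relative of NDUFA4 induced by low oxygen, had 0 counts in both controls and 2 in each siPPARG library. The ubiquitous COX7A2 stood at 85.2 and 83.2 CPM in OE33 and at 170.3 and 189.9 CPM in Eso26. Its relative COX7A2L was higher with siPPARG in both lines, at 76.5 and 88.6 CPM in OE33 (ratio 1.16, interval 1.08 to 1.25) and 118 and 131 CPM in Eso26 (ratio 1.11, interval 1.05 to 1.17).

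The 16 symbols under the threshold include 5 structural subunits of complex I, named after their values were seen (NDUFB8 and NDUFA11 also as nearest the threshold) and given by their counts in the OE33 control, OE33 siPPARG, Eso26 control and Eso26 siPPARG. NDUFV2, the iron-sulfur partner of NDUFV1, had 3, 0, 12 and 9 counts. NDUFA7 had 1, 0, 5 and 3 counts, and NDUFA13 had 4, 3, 7 and 14. NDUFA11 had 31, 36, 35 and 45 counts, and NDUFB8 had 54, 63, 41 and 42. These are far below the counts on their partners in the same complex, NDUFV1 having 2719, 2473, 3103 and 3300. In RefSeq NDUFV2 overlaps the antisense gene NDUFV2-AS1, which had 1, 5, 12 and 11 counts, and the pseudogene NDUFV2P1 had 34, 44, 66 and 47. No other RefSeq gene was found to overlap NDUFA7, NDUFA13, NDUFA11 or NDUFB8, though the annotation used for the counting is not known. The sources used here do not say how the deposited counting treated overlapping genes and reads with several matches, and its part in these low counts was not tested. The other 11 symbols were the tissue forms above, NDUFA4L2, the read-through NDUFC2-KCTD14 with 0 counts in all libraries, and the noncoding NDUFA6-DT, NDUFB2-AS1 and NDUFV2-AS1. Nearest the threshold, UQCRHL was inside at 5.67 CPM in OE33 and UQCR11 at 6.43 CPM in Eso26, while NDUFB8 was outside at 3.48 CPM in OE33 and NDUFA11 at 2.16 CPM in Eso26.

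Set side by side, the 2 lines disagreed in direction for most members. Of the 58, 39 were lower in OE33 siPPARG and higher in Eso26 siPPARG (against 24.5% of 9588 genes kept in both lines), 15 were higher in both (against 23.3%), 3 were lower in both (against 27.6%) and 1, NDUFA4, was higher in OE33 and lower in Eso26 (against 24.5%). Requiring the intervals to lie off 1, 10 members were lower in OE33 and higher in Eso26 (against 5.97%): CYC1, UQCRC1 and UQCRH of complex III, SDHA and SDHC of complex II, and NDUFB10, NDUFS3, NDUFS6, NDUFS7 and NDUFV1 of complex I. The interval lay above 1 in both lines for 3, COX7A2L, NDUFB2 and NDUFB11, the last named after its values were seen (against 5.26%). It lay below 1 in both for 2, NDUFA5 and NDUFS1 (against 10.0%), and above 1 in OE33 with below 1 in Eso26 for 0 (against 8.30%). With DESeq2 size factors the 39 became 33 and the 10 became 7, and with no scaling factor they became 41 and 14.

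Across the 58 members the log2 folds of the 2 lines were weakly related, with a Pearson r of 0.14 and a Spearman rho of 0.16, against 0.04 and 0.03 across all 9588 genes. These are descriptions across genes that share libraries, and genes are not independent replicates. The difference between the lines was not tested, since 1 library per condition leaves no error term for it. A shift shared by the lines was fitted to all 4 libraries by edgeR's quasi-likelihood method, where 1 residual degree of freedom remains. It called 0 of 58 members and 0 of 11382 genes (0.00%) at an adjusted p under 0.05, and the smallest adjusted p of a member was 0.947, for NDUFB2. At an unadjusted p under 0.05 it gave 0 members, against 574 genes (5.04%). DESeq2 called 13 genes and 0 members, and limma-voom called 0 genes and 0 members. A difference between the lines counts as error in these fits, and 39 of the 58 members were lower in OE33 and higher in Eso26. The fits could hardly call those members, so the 0 says nothing about a response within a line.

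**Figure D2:**
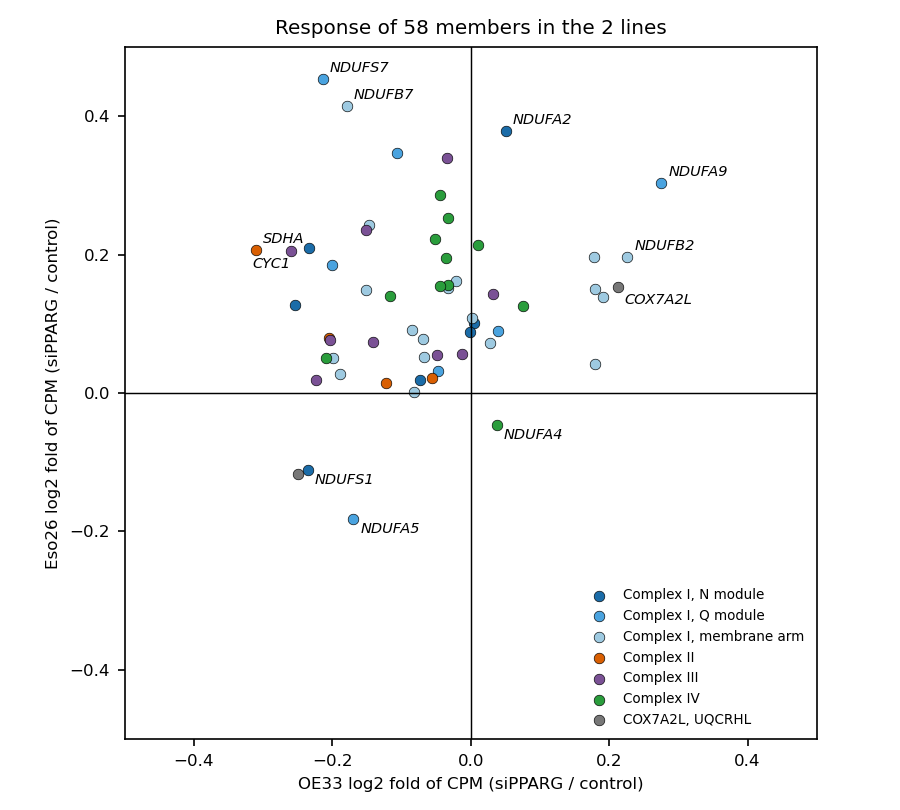
Log2 fold of CPM in siPPARG over control in OE33 (x axis) against that in Eso26 (y axis) for the 58 members, coloured by complex or module. The upper left part, lower in OE33 and higher in Eso26, holds 39 of the 58 points.

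In the control libraries, which received the non-silencing siRNA, the subunits stood at different levels in the 2 lines, mostly higher in Eso26. Of 58 members, 41 were higher in the Eso26 control (against 49.6% of 11205 genes) and 17 in the OE33 control (against 50.4%). The interval favoured Eso26 for 35 (against 44.2%) and OE33 for 15 (against 45.3%), and the median ratio of Eso26 to OE33 was 1.46. Past 1.5-fold there were 28 members higher in Eso26 (against 28.0%) and 11 higher in OE33 (against 31.4%). Past 2-fold there were 14 higher in Eso26 (against 16.6%) and 0 higher in OE33 (against 21.1%). The median log2 difference of OE33 minus Eso26 was -0.54, against 0.01 over all kept genes. With siPPARG the members' medians were -0.05 in OE33 and 0.13 in Eso26. All kept genes also spread more widely between the controls, with an interquartile range of -0.68 to 0.82. With siPPARG that range was -0.16 to 0.15 in OE33 and -0.16 to 0.14 in Eso26, so the sizes of these medians are not directly comparable.

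The widest differences were in accessory subunits of the membrane arm. NDUFB3 was 3.20-fold higher in the Eso26 control (interval 2.93 to 3.50), with 2750 counts against 620. NDUFB2 was 3.15-fold higher (interval 2.78 to 3.57), NDUFA1 3.04-fold (2.76 to 3.36) and NDUFB1 3.0-fold (2.58 to 3.49). In complex IV COX5A was 2.89-fold higher in Eso26, with 5849 counts against 1460, and COX6A1 was 2.24-fold higher. NDUFA6 was 2.67-fold, NDUFA9 2.36-fold and NDUFS1 2.32-fold higher in complex I, SDHD 2.31-fold in complex II and UQCRB 2.45-fold in complex III, and UQCRHL was 2.43-fold higher. SDHC was 2.18-fold higher.

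In the opposite direction, all 11 members past 1.5-fold in favour of the OE33 control were named after their values were seen. The ratio of OE33 to Eso26 was 1.99 for UQCR11 (interval 1.59 to 2.49), 1.93 for NDUFS4 (1.71 to 2.18) and 1.88 for NDUFB6. It was 1.77 for NDUFS7, 1.76 for NDUFAB1, the mitochondrial acyl carrier protein, and 1.75 for NDUFS8. It was 1.65 for NDUFA2, 1.64 for UQCRC2, 1.56 for NDUFB7, 1.55 for SDHA and 1.53 for CYC1. Subunits of the same complex thus stood in different proportions in the 2 lines, with SDHA higher in OE33 and SDHC and SDHD higher in Eso26. Complex III took 22.6% of the members' counts in the OE33 control (Wilson interval 22.3 to 22.9%) and 18.0% in the Eso26 control (17.8 to 18.2%).

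**Figure D3:**
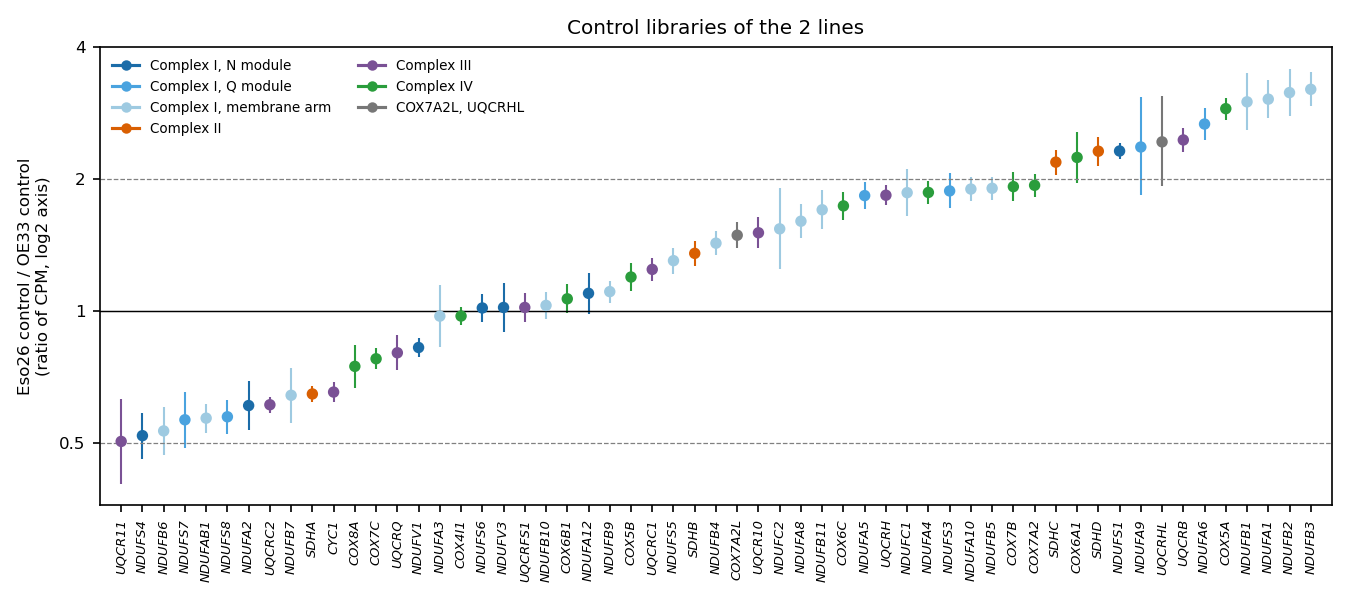
Ratio of CPM in the Eso26 control to the OE33 control (y axis, log2 scale) for 57 of the 58 members in order of the ratio (x axis), with 95% counting intervals as bars and dashed lines at 2-fold. Of the 57, 40 lie above 1, 13 of them above the upper dashed line, and 0 lie below the lower one.

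The genes around the respiratory chain were read from lists. Over all kept genes, 51.3% were lower in OE33 and 48.6% higher in Eso26. Intervals lay below 1 for 25.8% in OE33 and above 1 for 23.6% in Eso26. ATP synthase, the enzyme that uses the proton gradient, resembled the members: 13 of 18 genes were lower in OE33 (median -0.06) and 16 of 18 higher in Eso26 (median 0.10), with intervals below 1 for 6 in OE33 and above 1 for 12 in Eso26. ATP5IF1, the inhibitor of ATP hydrolysis, was an exception in OE33, with 635 counts in the control and 843 in siPPARG (ratio 1.24, interval 1.12 to 1.38). ATP5F1D, a stalk subunit, had 629 and 741 counts in Eso26 (ratio 1.28, interval 1.15 to 1.43). Assembly factors of complexes I to IV were evenly divided in OE33, 22 of 42 lower, and 25 of 42 were higher in Eso26. Among them SDHAF3, which helps to insert the iron-sulfur clusters of SDHB, had 589 and 366 counts in OE33 (ratio 0.581, interval 0.508 to 0.663) and 274 and 275 in Eso26 (interval 0.919 to 1.29). LYRM7, which does so for the complex III iron-sulfur protein, was lower in both lines, with 729 and 508 counts in OE33 (ratio 0.651, interval 0.581 to 0.731) and 726 and 499 in Eso26 (ratio 0.747, interval 0.665 to 0.838).

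The 13 mitochondrially encoded subunits, partners of the members in complexes I, III and IV and in ATP synthase, stood the other way round in both lines. In OE33 13 of 13 were higher with siPPARG (against 48.7% of all kept genes), 9 by their intervals (against 24.8%). Their median log2 fold was 0.34, while 42 of 58 nuclear members were lower. In Eso26 10 of 13 were lower (against 51.4% of all kept genes), 8 by their intervals (against 29.6%). Their median was -0.09, while 54 of 58 nuclear members were higher. MT-ND6 had 155 and 259 counts in OE33 (ratio 1.56, interval 1.28 to 1.92), and MT-ATP8 had 4620 and 3350 in Eso26 (ratio 0.788, interval 0.754 to 0.824). Between the controls all 13 were more than 2-fold lower in OE33, with a median log2 difference of OE33 minus Eso26 of -2.59, against -0.54 for the nuclear members.

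Regulators of mitochondrial biogenesis stood mostly lower with siPPARG in both lines. In OE33 9 of 11 kept genes were lower (against 51.3% of all kept genes), 7 by their intervals (against 25.8%). In Eso26 9 of 12 were lower (against 51.4%), 6 by their intervals (against 29.6%). GABPA, the DNA-binding subunit of GABP, had 691 and 544 counts in OE33 (ratio 0.736, interval 0.657 to 0.825) and 916 and 701 in Eso26 (ratio 0.832, interval 0.753 to 0.919). PPARGC1B had 324 and 281 counts in OE33 (ratio 0.811, interval 0.689 to 0.954) and 447 and 249 in Eso26 (ratio 0.605, interval 0.516 to 0.709). In Eso26 most nuclear subunits were higher in the library in which 9 of the 12 regulators were lower. A link between regulators and subunits was not tested. The regulators that follow were named after their values were seen. TFAM, which packs mitochondrial DNA and starts its transcription, was at 109 and 101 CPM in OE33 and 246 and 196 CPM in Eso26. PPRC1 was at 102 and 119 CPM in OE33 (ratio 1.17, interval 1.09 to 1.24) and at 57.5 and 45.3 CPM in Eso26 (ratio 0.788, interval 0.724 to 0.857). PPARGC1A had 28 and 34 counts in OE33, under the threshold, and 124 and 112 in Eso26. YY1, whose letters were counted in the promoters above, was at 171 and 143 CPM in OE33 (ratio 0.839, interval 0.795 to 0.885) and at 256 and 242 CPM in Eso26 (ratio 0.945, interval 0.910 to 0.981). NRF1 was at 17.9 and 14.9 CPM in OE33 (ratio 0.833, interval 0.704 to 0.985) and at 20.6 and 19.4 CPM in Eso26, where the interval of 0.819 to 1.07 includes 1. The 3 regulators that stood higher in Eso26 siPPARG were ESRRA, an orphan nuclear receptor, and TFB1M and POLRMT of the mitochondrial ribosome and transcription machinery. ESRRA was at 109 and 110.4 CPM in OE33 (interval 0.954 to 1.08) and at 56.6 and 63.1 CPM in Eso26 (ratio 1.11, interval 1.03 to 1.2). TFB1M had 317 and 257 counts in OE33 (ratio 0.758, interval 0.640 to 0.896) and 547 and 542 in Eso26 (ratio 1.08, interval 0.955 to 1.22). POLRMT was at 45.4 and 39.8 CPM in OE33 (ratio 0.878, interval 0.792 to 0.973) and at 34.6 and 35.5 CPM in Eso26 (interval 0.927 to 1.14).

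Ribosomal protein genes stood mostly in the same directions as the members. Over all kept genes, 51.3% were lower in OE33 and 48.6% higher in Eso26, 23.6% by their intervals. Of mitochondrial ribosomal protein genes, 46 of 73 were lower in OE33 (median -0.07) and 46 of 74 higher in Eso26 (median 0.07). MRPL12 had 66 and 95 counts in OE33 (interval 0.973 to 1.87), and MRPS34 had 1590 and 1930 in Eso26 (ratio 1.32). Of cytosolic ribosomal protein genes, 50 of 76 were lower in OE33 (median -0.03) and 71 of 76 higher in Eso26 (median 0.09), 59 by their intervals. RPL7 had 10831 and 8777 counts in OE33 (ratio 0.758), and RPS29 had 3211 and 3702 in Eso26 (ratio 1.25). The members of Eso26 were therefore not alone in standing higher, and the part of a general difference between the libraries in the members' result was not tested.

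**Figure D4:**
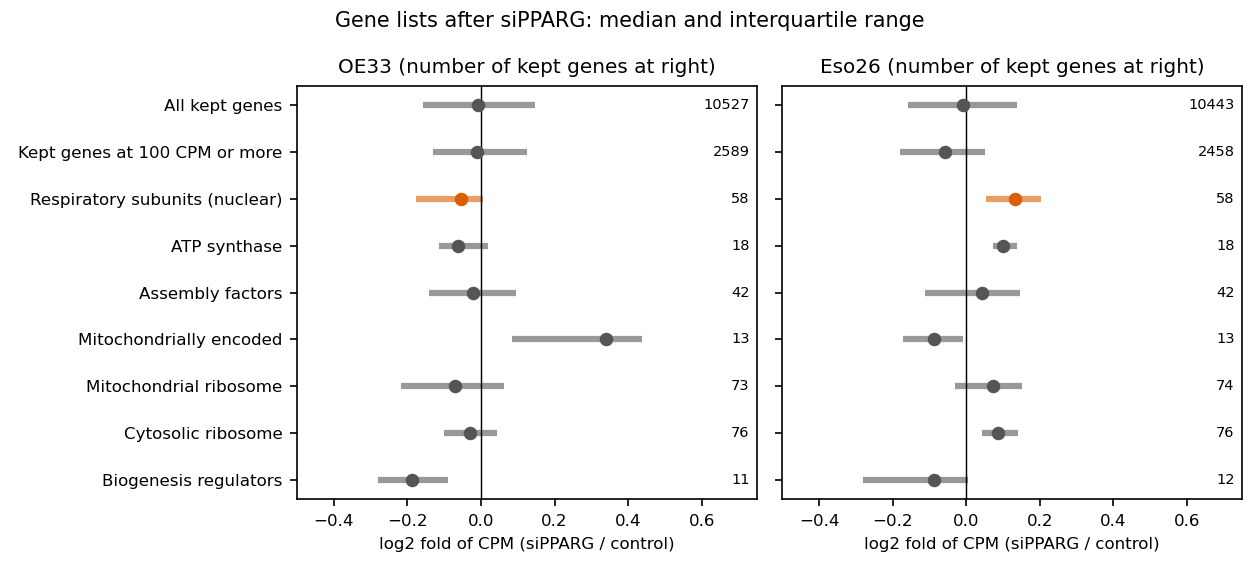
Median (point) and interquartile range (bar) of the log2 fold of CPM in siPPARG over control (x axis) for each gene list (y axis), OE33 left and Eso26 right, with the number of kept genes at the right edge. The nuclear respiratory subunits have a median of -0.05 in OE33 and 0.13 in Eso26, and the mitochondrially encoded subunits 0.34 and -0.09.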

How the data were processed

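RNA of 4 samples, 1 for each combination of cell line and siRNA, was analysed from raw counts per gene, deposited by the authors as whole numbers without normalisation per the file values. The build hg19 and the tools Bowtie, STAR, MACS2, Picard and Trim Galore appear in the submitters' processing notes. No source used here gives the read counter, its strand or its annotation. Of 37533 rows per table, 40 repeated an identifier and were summed. The PPARG peak lists were not used here, since no annotation of their build was at hand.

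TMM factors (edgeR 4.0.16 under R 4.3.3) scaled the counts of each pair of libraries. Log2 folds are differences of log2 CPM after adding a prior count of 2. A gene was kept when either library of the pair reached 5 CPM. Ratios carry exact conditional binomial (Clopper-Pearson) 95% intervals. The effect common to both lines was fitted with edgeR's quasi-likelihood test (cell line and treatment) with Benjamini-Hochberg adjustment, with DESeq2 1.42.0 and limma 3.58.1 as alternatives. The code was run on simulated counts with known folds. For the intervals these carried counting error alone, and for the shared fit the folds were larger than the members' and alike in both lines. The runs therefore say nothing about variation between cultures, or about how the shared fit handles small or opposite folds. Other scalings, filters, prior counts and memberships were tried.

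Named genes were, per complex or module, the 3 members with the largest absolute log2 fold in each line, all of complex II, isoform pairs, the 12 largest differences between controls, the members nearest the threshold and the largest change of each other list. Members, lists and tests were chosen with earlier results of these data known. The values of 1 member are not reported here; it is counted in all totals and left out of the plots that name members.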

Additional observations from a re-analysis of the deposited data

Results flagged for a closer look

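For 39 of the 58 members the log2 fold of siPPARG over control was below 0 in OE33 and above 0 in Eso26. The members' median in OE33 minus that in Eso26 was -0.19. For 10 members the counting interval lay below 1 in OE33 and above 1 in Eso26, and the same difference was -0.67 for NDUFS7, -0.52 for SDHA, -0.47 for CYC1, -0.44 for NDUFV1, -0.39 for NDUFB10, -0.39 for NDUFS3, -0.39 for UQCRC1, -0.38 for NDUFS6, -0.28 for SDHC and -0.28 for UQCRH. These differences were not tested, because each condition has 1 library. PPARG was lower in OE33 siPPARG (ratio 0.136) and not detectably lower in the Eso26 library labelled siPPARG (ratio 0.843, interval 0.698 to 1.02).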

How the results depend on the processing

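No paired analysis was possible because, within a line, each group holds 1 library and the columns carry no replicate numbers. The fit with cell line as a term does set siPPARG against the control of its own line, with 1 residual degree of freedom. Leaving out a library would leave no pair in its line. No median over the members, and no named member with an interval off 1, changed its direction under the alternatives run, and the fit shared by the lines called 0 members in each. With no filter on low counts, 69 symbols had a value in OE33 and 67 in Eso26, and the number past 1.5-fold became 7 in OE33 and 2 in Eso26, where 0 had been found among the 58. The number lower in Eso26 was 4, and became 8 with DESeq2 size factors and 7 with no filter. Across the filters, prior counts and memberships tried, the members' median minus that of all kept genes was -0.05 to -0.04 in OE33. In Eso26 it was 0.12 to 0.15. A scaling moves all genes nearly alike, so it could not change this difference. The members' own median in Eso26 was 0.11 with DESeq2 size factors and 0.18 with no scaling factor, and in OE33 it was -0.04 and -0.06. Depth limits single genes: the median counting interval of a member reached 0.12 to either side in OE33 and 0.09 in Eso26 on the log2 scale, against median log2 folds of -0.05 and 0.13.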
